A study of Mus musculus with 6 samples.

Results

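Lysosomal enzymes and membrane proteins were examined in isolated pancreatic islets as a set of 39 member genes chosen by symbol: 12 proteases, 9 glycosidases, 3 sulfatases, 7 enzymes and carriers of lipid breakdown, 7 membrane proteins and progranulin. Every probe set that the platform annotation gives to exactly 1 of these symbols was taken, which gave 89 of the 45037 probe sets tested, and all 39 genes were measured among 18193 named genes. The set was chosen with earlier results of these data known. Each gene is represented by its brightest probe set, judged by the mean of the 6 arrays. RNA of 6 mice was hybridised to Affymetrix mouse arrays, 1 array per mouse, from 3 wild-type mice (replicates 1 to 3) and 3 hIAPP-Tg mice (replicates 4 to 6). All mice were 12 weeks old on standard chow, and FVB/N-Tg(Ins2-IAPP)RFHSoel/J stands as the strain of both genotypes. hIAPP-Tg mice carry the gene for human islet amyloid polypeptide (IAPP), a hormone that beta cells secrete with insulin and whose human form readily aggregates into amyloid. The transgene is driven by an insulin promoter, which is active in beta cells. Zygosity and copy number are not stated in the labels. The genotype labels could not be checked, since the array's probes are for mouse Iapp. The values are log2 expression values after RMA. It corrects the background, gives the probe values of all arrays 1 distribution and then summarises the probes of each probe set. Differences are hIAPP-Tg minus wild type in log2 units, so that 1 unit is a doubling. Values on single arrays are given in the order of the replicates, wild type first.

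Lysosomes are acidic organelles that break down material taken up by the cell and worn-out parts of the cell itself. Most of their enzymes are soluble hydrolases, which are tagged with mannose 6-phosphate and carried to the lysosome, where they work at low pH. Heavily glycosylated membrane proteins line the organelle, pump and export its contents and shield the membrane from digestion. In beta cells lysosomes also degrade unused insulin granules, and macrophages, which clear debris and protein aggregates, are rich in the same enzymes.

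The promoters of several members share a sequence that the factor TFEB and its relatives are known to bind in lysosomal genes. Any part of this sequence in the differences between genotypes was not tested. RefSeq promoters of build GRCm38.p6, from 250 bases before to 50 bases after the start, were matched for 34 of the 39 members, 4 of which had several entries. The letters CACGTG, which read alike on both strands, occurred in 13 of 38 member promoters (34.2%), against 7.15% of all 32851 promoters of that length. The longer TCACGTG, searched on both strands and always overlapping a CACGTG, occurred in 11 of the 38 (28.9%), against 3.77% of all. Printed below 5′ to 3′ on the gene's strand, with CACGTG in capitals, are the promoters of 3 proteases with large differences (Ctsd, Ctsa and Lgmn), of the membrane protein with the most matches (Lamp1, with 4), of a membrane protein with matches and almost no difference (Cln3), and of a protease with a large difference and no match (Ctsz). Their positions are chr7:142387778-142388077 on the minus strand for Ctsd, chr2:164833523-164833822 on the plus strand for Ctsa, chr12:102439043-102439342 on the minus strand for Lgmn, chr8:13158911-13159210 on the plus strand for Lamp1, chr7:126583187-126583486 on the minus strand for Cln3 and chr2:174438990-174439289 on the minus strand for Ctsz. Ctsa, Lgmn and Cln3 each have a second promoter entry, which holds no match.
Ctsd: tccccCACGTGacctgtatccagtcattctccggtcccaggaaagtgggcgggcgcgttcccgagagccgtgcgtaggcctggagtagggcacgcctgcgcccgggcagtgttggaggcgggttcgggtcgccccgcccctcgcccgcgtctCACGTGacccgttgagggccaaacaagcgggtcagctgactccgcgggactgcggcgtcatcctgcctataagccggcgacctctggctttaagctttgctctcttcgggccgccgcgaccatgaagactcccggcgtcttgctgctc
Ctsa: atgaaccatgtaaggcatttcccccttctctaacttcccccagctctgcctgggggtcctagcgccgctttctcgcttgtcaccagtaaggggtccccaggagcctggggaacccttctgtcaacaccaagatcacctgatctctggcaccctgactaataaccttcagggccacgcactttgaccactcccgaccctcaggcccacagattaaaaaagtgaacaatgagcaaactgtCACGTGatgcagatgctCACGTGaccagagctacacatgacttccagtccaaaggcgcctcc
Lgmn: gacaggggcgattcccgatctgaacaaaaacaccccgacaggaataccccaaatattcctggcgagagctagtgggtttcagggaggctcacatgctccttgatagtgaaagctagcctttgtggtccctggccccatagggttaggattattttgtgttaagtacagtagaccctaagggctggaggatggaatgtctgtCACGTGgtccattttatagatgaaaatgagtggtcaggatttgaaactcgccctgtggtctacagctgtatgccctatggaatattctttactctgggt
Lamp1: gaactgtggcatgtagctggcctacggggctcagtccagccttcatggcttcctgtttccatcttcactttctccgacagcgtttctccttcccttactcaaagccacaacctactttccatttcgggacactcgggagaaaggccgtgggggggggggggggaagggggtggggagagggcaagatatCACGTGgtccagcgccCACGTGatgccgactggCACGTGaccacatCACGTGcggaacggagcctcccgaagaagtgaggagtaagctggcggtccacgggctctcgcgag
Cln3: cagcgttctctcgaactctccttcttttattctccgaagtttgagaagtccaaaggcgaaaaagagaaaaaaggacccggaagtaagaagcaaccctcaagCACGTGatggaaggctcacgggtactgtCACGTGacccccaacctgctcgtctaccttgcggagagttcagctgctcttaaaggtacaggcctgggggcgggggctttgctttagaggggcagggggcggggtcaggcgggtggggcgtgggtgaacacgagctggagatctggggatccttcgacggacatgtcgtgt
Ctsz: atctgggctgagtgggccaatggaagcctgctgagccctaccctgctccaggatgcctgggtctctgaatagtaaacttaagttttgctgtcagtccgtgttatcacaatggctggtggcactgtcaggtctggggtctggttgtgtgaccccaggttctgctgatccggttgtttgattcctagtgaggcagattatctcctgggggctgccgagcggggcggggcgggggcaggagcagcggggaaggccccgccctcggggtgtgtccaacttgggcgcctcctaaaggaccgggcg

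The match nearest the start began 98 bases upstream of it in Ctsd, 49 in Lgmn, 15 in Lamp1 and 121 in Cln3. In Ctsa one match began 12 bases upstream of the start and the other 5 bases after it. The matches were spread over the groups, in 5 of 12 protease promoters (Ctsa, Ctsd, Ctsf, Ctsl, Lgmn), 3 of 9 glycosidase promoters (Gaa, Gla, Glb1), 1 of 2 sulfatase promoters (Arsa) and 4 of 7 membrane protein promoters (Cd164, Cln3, Lamp1, Mcoln1), while none of the 7 promoters of lipid enzymes and carriers held one, nor did that of Grn. The 13 genes with CACGTG had a median difference of 0.30, with a range of -0.03 to 0.57, and the 21 without it one of 0.20, with a range of -0.07 to 0.77. Proteases were 5 of the 13 and 5 of the 21, so the groups are unevenly split. Ctsb, Ctsh, Galns, Asah1 and Npc1 had no promoter entry and are in neither count. For TCACGTG both medians were 0.20. A match is a string of letters and does not show that a factor was bound.

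None of the member genes passed the test between genotypes, but most lay higher in hIAPP-Tg islets by small amounts. In limma with Benjamini-Hochberg adjustment over all 45037 probe sets, 0 of the 39 members had an adjusted p under 0.05, where 13 of all probe sets did (0.0289%), or 0.044% of genes. At an unadjusted p under 0.05, 23 members were higher and 0 lower, while 5.02% of all genes were higher and 3.45% lower. For 21 members every hIAPP-Tg array lay above every wild-type array, against 4.49% of all genes, and for 0 the order was the opposite, against 3.22%. The median difference was 0.20 over the members and 0 over all genes, with 32 members above 0 (against 48% of all genes), 2 at 0 and 5 below. All members lay above the median level of the probe sets, 5.7. Among the 11730 genes above that level, 53.4% had a difference above 0, 6.56% were higher at an unadjusted p under 0.05 and 5.76% separated with the hIAPP-Tg arrays higher. Since the members were chosen with earlier results known, these shares describe the set and do not test it. Since the deposited values are rounded to steps of 0.1, 8 of the 21 separations rest on a gap of a single step (Arsb, Gla, Glb1, Grn, Lamp1, Lamp2, Npc2 and Scarb2), and the widest gap was 0.5, in Lipa.

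**Figure D1:**
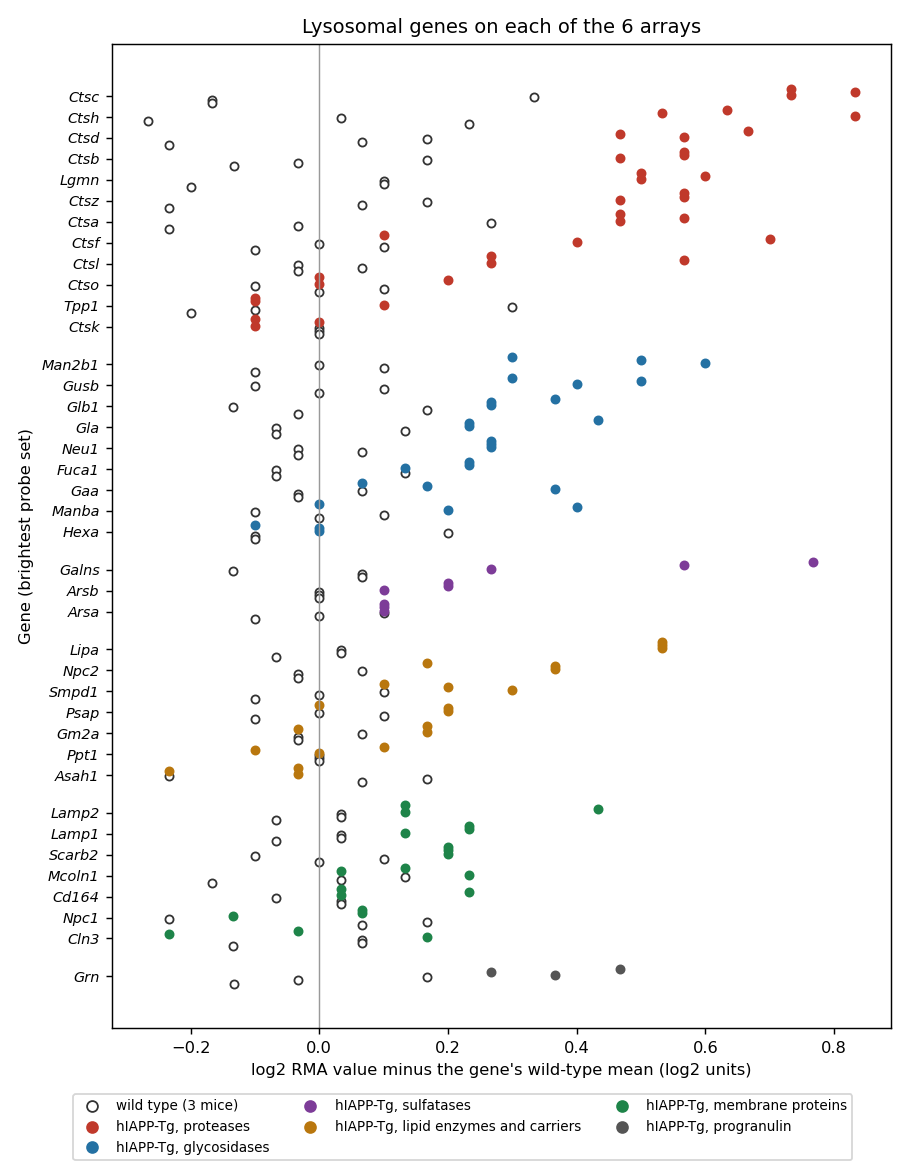
Each of the 39 lysosomal genes on the 6 arrays, as the log2 value of its brightest probe set minus its wild-type mean (horizontal axis, log2 units), with open circles for the 3 wild-type mice and filled circles for the 3 hIAPP-Tg mice, coloured by functional group. The filled circles of most proteases and of Man2b1, Gusb, Galns and Lipa lie clear of the open ones, while those of Ctso, Tpp1, Ctsk, Hexa, Ppt1, Asah1, Npc1 and Cln3 lie among or next to them.

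The proteases had the largest median difference, 0.52 over 12 genes. Of them 9 were higher at an unadjusted p under 0.05, against 5.02% of all genes. Cathepsin C (Ctsc), a dipeptidyl peptidase that activates serine proteases of immune cells, stood at 8.2, 7.7 and 7.7 against 8.6, 8.7 and 8.6. It had the largest difference of the 39 genes (0.77, SE 0.14, 1.70-fold, limma adjusted p = 0.391), and wild-type replicate 1 came closest to the hIAPP-Tg range. Its other 2 probe sets lay near the floor of the scale and differed by 0.07 and -0.03. Cathepsin H (Ctsh), an aminopeptidase, was at 6.5, 6.2 and 6.7 against 7.1, 7.0 and 7.3 (difference 0.67, SE 0.14, limma adjusted p = 0.431), and its second probe set differed by 0.53. For both genes the genotypes did not overlap.

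Cathepsin D (Ctsd), the main aspartic protease of lysosomes, has a single probe set. It stood at 10.1, 10.0 and 9.7 against 10.6, 10.4 and 10.5 (difference 0.57, SE 0.12, limma adjusted p = 0.419). Cathepsin B (Ctsb), a cysteine protease abundant in many cells, was at 10.5, 10.3 and 10.2 against 10.9, 10.9 and 10.8 (difference 0.53, SE 0.091, limma adjusted p = 0.291). The genotypes were apart by 0.3 in both. Ctsb has 5 probe sets, all above 0, and 4 of them had an unadjusted p under 0.05. One of these gave the largest difference among all 89 probe sets, 0.93, from 6.4, 6.4 and 6.5 on the wild-type to 7.6, 7.3 and 7.2 on the hIAPP-Tg arrays (limma adjusted p = 0.132).

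Cathepsin Z (Ctsz), a carboxypeptidase, was at 10.3, 10.2 and 9.9 against 10.7, 10.7 and 10.6 (difference 0.53, SE 0.11, limma adjusted p = 0.419). Its 3 probe sets differed by 0.33 to 0.53, each with an unadjusted p under 0.05. Legumain (Lgmn), an asparaginyl endopeptidase that processes other cathepsins, stood at 8.4, 8.4 and 8.1 against 8.8, 8.9 and 8.8 (difference 0.53, SE 0.098, limma adjusted p = 0.366). Cathepsin A (Ctsa), a carboxypeptidase that also stabilises beta-galactosidase and neuraminidase, was at 9.6, 9.3 and 9.1 against 9.8, 9.9 and 9.8 (difference 0.50, SE 0.13, limma adjusted p = 0.503). Wild-type replicate 3 had the lowest value of its genotype in each of these 3 genes.

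Cathepsin L (Ctsl), a cysteine endopeptidase with broad activity, was at 12.1, 12.2 and 12.1 against 12.4, 12.7 and 12.4 (difference 0.37, SE 0.098, limma adjusted p = 0.503). Cathepsin F (Ctsf) differed by 0.40 (SE 0.15), but its lowest hIAPP-Tg value, 8.5, equalled the highest wild-type value. The remaining proteases showed little difference. Cathepsin O (Ctso) differed by 0.07, tripeptidyl peptidase (Tpp1), at 9.9, 9.5 and 9.4 against 9.5, 9.5 and 9.7, by -0.03 (0.12 without wild-type replicate 1), and cathepsin K (Ctsk), the collagen-degrading protease of osteoclasts, by -0.07, with all its values at 6.2 or 6.3. The protease set was not uniform. In 8 genes the genotypes separated with hIAPP-Tg higher (against 4.49% of all genes), and 3 had differences of 0.07 or less.

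Among the glycosidases, which remove sugars from glycoproteins and glycolipids, the median difference was 0.27. Of the 9 genes, 6 were higher at an unadjusted p under 0.05 (against 5.02% of all genes). Man2b1, the lysosomal alpha-mannosidase, stood at 9.1, 9.2 and 9.0 against 9.4, 9.6 and 9.7 (difference 0.47, SE 0.098, limma adjusted p = 0.419), though its second, dimmer probe set differed by -0.10. Gusb, beta-glucuronidase, was at 9.3, 9.5 and 9.4 against 9.7, 9.9 and 9.8 (difference 0.40, SE 0.082, limma adjusted p = 0.419), and its second probe set differed by 0.47. Both genes lay apart between the genotypes. Neu1, the lysosomal sialidase, was at 8.7, 8.8 and 8.7 against 9.0 on each hIAPP-Tg array (difference 0.27, SE 0.057, limma adjusted p = 0.419). Gla, an alpha-galactosidase, was at 6.9, 7.1 and 6.9 against 7.4, 7.2 and 7.2, and Glb1, a beta-galactosidase, at 7.9, 8.2 and 8.0 against 8.4, 8.3 and 8.3. Each differed by 0.30 with a gap of a single step, and Fuca1, an alpha-fucosidase whose genotypes overlapped, by 0.20.

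The other glycosidases overlapped between genotypes. Gaa, the acid alpha-glucosidase that degrades glycogen, and Manba, beta-mannosidase, each differed by 0.20. Hexa, the alpha subunit of beta-hexosaminidase, was at 11.7, 11.4 and 11.4 against 11.4, 11.5 and 11.5, a difference of -0.03. Of the sulfatases, Galns, which removes sulfate from keratan sulfate, was at 6.5, 6.7 and 6.7 against 7.4, 7.2 and 6.9 (difference 0.53, SE 0.14, limma adjusted p = 0.503), while its dim second probe set differed by -0.10. Arsb, arylsulfatase B, was at 10.2 on each wild-type array and at 10.4, 10.4 and 10.3 on the hIAPP-Tg arrays (difference 0.17, SE 0.057), and Arsa, arylsulfatase A, differed by 0.10.

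The enzymes and carriers of lipid breakdown were mixed, with a median difference of 0.13 over 7 genes. Of the 7 genes, 3 were higher at an unadjusted p under 0.05 (against 5.02% of all genes). Lipa, the acid lipase that frees cholesterol from its esters, had the smallest p of all members. It stood at 7.7, 7.7 and 7.6 on the wild-type arrays and at 8.2 on each hIAPP-Tg array (difference 0.53, SE 0.057, 1.45-fold, limma adjusted p = 0.0924). Its other 2 probe sets differed by 0.10 and 0.13, and its 3 hIAPP-Tg values are identical after the rounding to 0.1. Npc2, which carries cholesterol inside the lysosome, was at 11.8, 11.7 and 11.7 against 11.9, 12.1 and 12.1 (difference 0.30, SE 0.078, limma adjusted p = 0.503). Acid sphingomyelinase (Smpd1) differed by 0.20, the saposin precursor Psap by 0.13 and the ganglioside activator Gm2a by 0.10.

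Asah1, acid ceramidase, was the lowest of all members, at 11.7, 12.1 and 12.0 against 11.9, 11.7 and 11.9, a difference of -0.10 (SE 0.12) within overlapping values. Ppt1, which removes fatty acids from proteins, differed by 0, and none of its 5 probe sets lay above 0. Progranulin (Grn), a secreted protein that is cut into granulins in the lysosome, was at 10.6, 10.4 and 10.3 against 10.9, 10.7 and 10.8 (difference 0.37, SE 0.098, limma adjusted p = 0.503). Its other probe sets differed by 0.40 and 0.20. By Affymetrix naming, the _x_ probe sets that stand for Grn and Gaa and the _s_ probe sets that stand for Lipa and Mcoln1 can also bind related transcripts.

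The membrane proteins had the same median as the lipid group, 0.13 over 7 genes. Among them 2 were higher at an unadjusted p under 0.05 (against 5.02% of all genes). Lamp1, an abundant glycoprotein of the lysosomal membrane, was at 12.4, 12.4 and 12.3 against 12.6, 12.6 and 12.5 (difference 0.20, SE 0.063, limma adjusted p = 0.552). Scarb2, the receptor that brings glucocerebrosidase to the lysosome, was at 11.4, 11.6 and 11.5 against 11.7 on each hIAPP-Tg array, also a difference of 0.20. Lamp2, a relative of Lamp1 that also serves autophagy, was at 11.7, 11.7 and 11.6 against 11.8, 12.1 and 11.8 (difference 0.23, SE 0.098), and the other 3 probe sets differed by 0.13 to 0.23. In all 4 of them hIAPP-Tg replicate 5 was the highest array. The sialomucin Cd164 was at 13.4, 13.5 and 13.5 against 13.5, 13.7 and 13.5, a difference of 0.10.

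The remaining membrane proteins showed no separation of the genotypes. The calcium channel Mcoln1 differed by 0.13, the cholesterol exporter Npc1 by 0, and Cln3, which was at 6.7, 6.7 and 6.5 against 6.6, 6.4 and 6.8, by -0.03. All 7 membrane proteins lay between -0.03 and 0.23, below the median of the proteases.

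The groups were set against each other by the mean over their genes on each array, relative to the wild-type mean. For proteases this was 0.12, -0.01 and -0.11 against 0.36, 0.46 and 0.39. For glycosidases it was -0.03, 0.07 and -0.05 against 0.21, 0.29 and 0.27, and for membrane proteins -0.02, 0.07 and -0.05 against 0.11, 0.14 and 0.11. The genotypes did not overlap in any of these 3 group means. The excess of proteases over glycosidases was 0.14, -0.08 and -0.06 against 0.15, 0.17 and 0.12, so it overlapped. Wild-type replicate 1 was the highest wild-type array in proteases but not in glycosidases. The excess of proteases over membrane proteins was at most 0.14 on the wild-type arrays and at least 0.25 on the hIAPP-Tg arrays. These means over chosen genes have no test.

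**Figure D2:**
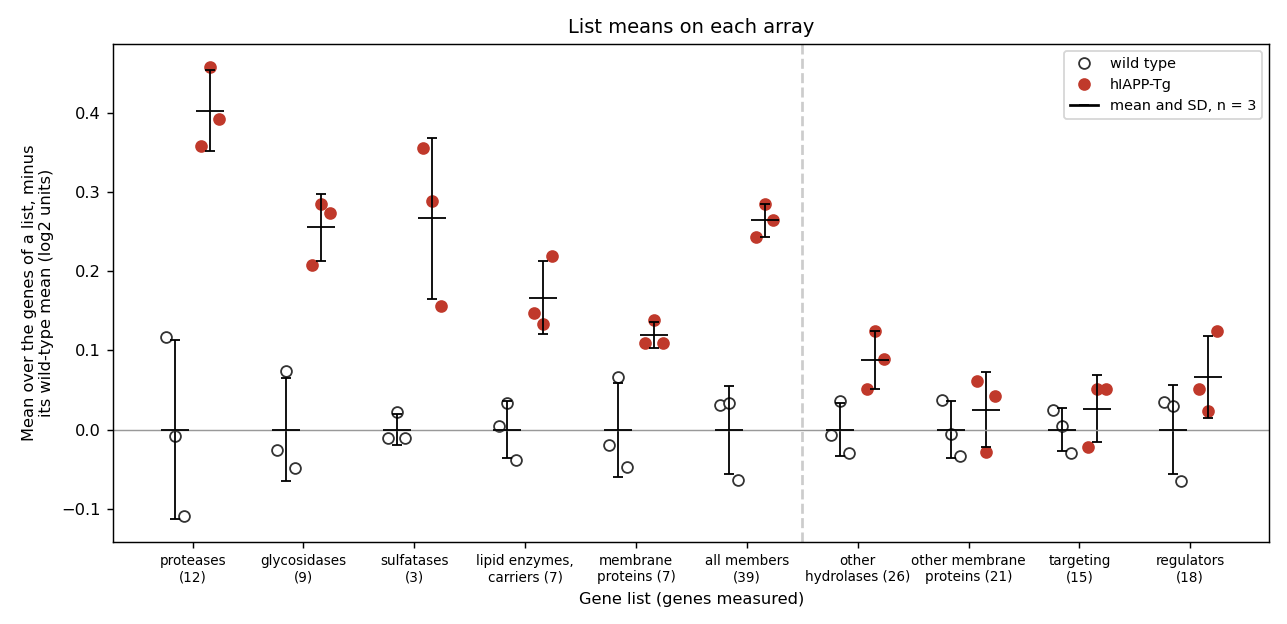
Mean over the genes of each list on each array minus its wild-type mean (vertical axis, log2 units), with the number of genes under each list, open circles for wild type, filled circles for hIAPP-Tg, and a bar with whiskers for the mean and SD of 3 mice. Left of the dashed line, the hIAPP-Tg circles of every member group lie above the wild-type ones, from 0.40 for proteases down to 0.12 for membrane proteins. Right of it, the other hydrolases do not overlap either, at -0.03 to 0.04 for wild type and 0.05 to 0.12 for hIAPP-Tg. Other membrane proteins, targeting and regulator genes overlap.

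**Figure D3:**
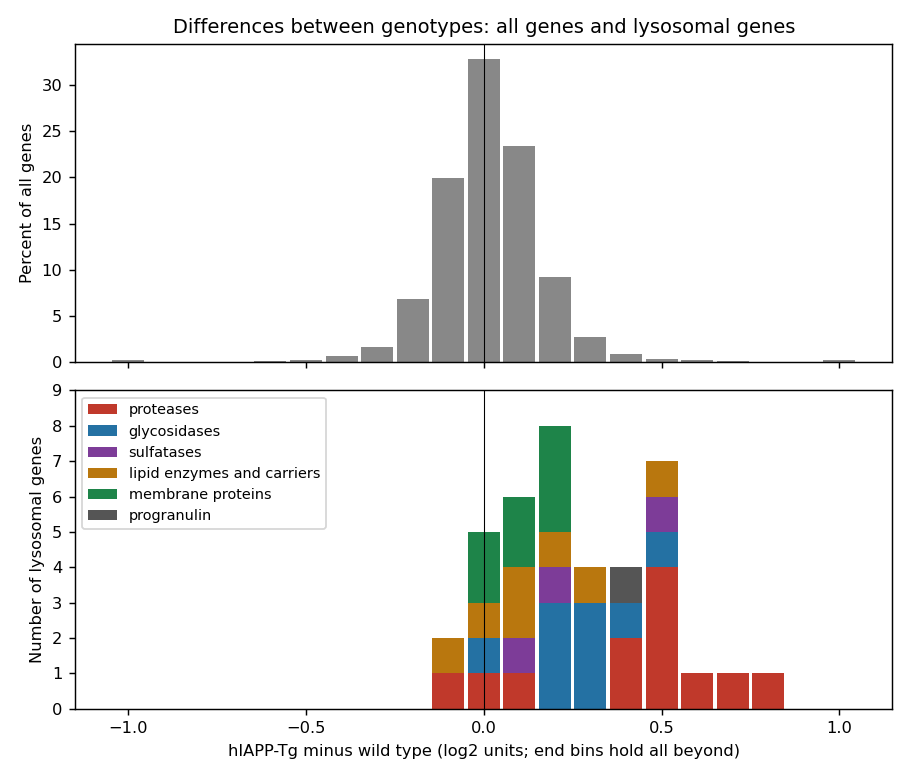
Distribution of the differences between genotypes in bins of 0.1 log2 units, as the percent of all 18193 genes (upper panel) and as the number of the 39 lysosomal genes stacked by functional group (lower panel). All genes centre on 0, whereas most lysosomal genes lie to the right of it, with proteases farthest out, up to 0.77.

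The order of the arrays within a genotype was not the same in all groups. Wild-type replicate 3 was the lowest of its genotype, without a tie, in 7 of 12 proteases and in 17 of the 39 members. Over all 18193 genes it was so in 3949. Wild-type replicate 2 was the highest in 7 of 9 glycosidases, and in 5647 of all genes. Among hIAPP-Tg mice, replicate 5 was the highest in 7 of 12 proteases, and in 3902 of all genes. Without wild-type replicate 3, the count of members higher at an unadjusted p under 0.05 went from 23 to 17, the lowest among the arrays left out in turn, and the protease median from 0.52 to 0.40. The median of the lipid group was 0.083 without that array.

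The difference depended on the probe set. Over all 89 member probe sets, 68 lay above 0 (44.7% of all probe sets), 34 had an unadjusted p under 0.05 with hIAPP-Tg higher (3.82%) and 0 with it lower (3.51%), and in 30 the genotypes separated with hIAPP-Tg higher (3.44%). Their median difference was 0.13. Of the 29 members with several probe sets, 17 had all of them above 0. In 19 of the 29 the brightest was higher at an unadjusted p under 0.05, and in 8 of these 19 a second probe set was too (Ctsb, Ctsh, Ctsl, Ctsz, Grn, Gusb, Npc2 and Scarb2). Of the 68 member probe sets above the median level of 5.7, 32 were higher at an unadjusted p under 0.05, and of the 21 at or below it, 2 were. With the probe sets of each gene averaged, the protease median was 0.28 and that of all members 0.18.

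**Figure D4:**
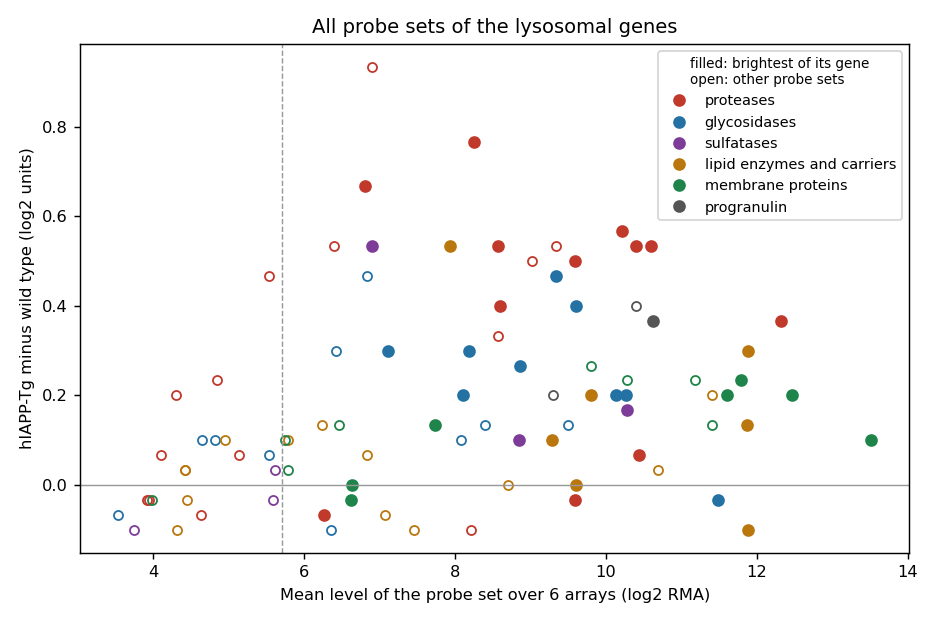
All 89 probe sets of the lysosomal genes by mean level over the 6 arrays (horizontal axis, log2) and difference between genotypes (vertical axis, log2 units), filled for the brightest probe set of a gene and open for the others, with the median level of all probe sets as a dashed line. Differences above 0.5 occur only to the right of the dashed line, while the dim probe sets to its left scatter around 0, apart from Ctsb at 0.47.

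Other lists of lysosomal genes were read beside the members. Of 26 further genes listed as hydrolases, 5 were higher (5.02% of all genes) and 1 lower (3.45%) at an unadjusted p under 0.05. Their median was 0.10. The higher ones were the carboxypeptidase gene Scpep1 (0.23), the exonuclease gene Pld3 (0.23), the phospholipase gene Pla2g15 (0.30), Aga, which cleaves sugar-linked asparagine (0.17), and Fuca2 (0.30). The lower one, Sgpl1 (-0.43), encodes an enzyme of the endoplasmic reticulum and was listed there in error, as were Gnpda1 and Manbal, and without these 3 the median was again 0.10. Of 21 other lysosomal membrane proteins 0 were higher or lower at an unadjusted p under 0.05, and 0 of them passed limma after adjustment. Their median was 0.033.

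Genes that bring enzymes to the lysosome or control its number showed small differences. Among 15 targeting genes the adaptor Gga1 differed by -0.43, with an unadjusted p under 0.05 (limma adjusted p of 0.471), and the mannose 6-phosphate receptors M6pr and Igf2r differed by 0.10 and 0.13. Among 18 regulators, Rptor (0.20) and Lamtor2 (0.30), parts of the nutrient-sensing machinery on the lysosome, were higher at an unadjusted p under 0.05. Over all genes, 5.02% were higher and 3.45% lower at that threshold. The transcription factor genes Tfeb, Tfe3 and Mitf differed by 0.10, -0.07 and 0.07. Of 6 protease inhibitors the cathepsin inhibitor Cstb was higher at an unadjusted p under 0.05 (0.20), and the abundant cystatin Cst3 differed by 0.033.

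Lysosomal genes typical of phagocytes had the largest median of the lists. That median was 1.07 over 11 such genes, and 7 were higher at an unadjusted p under 0.05 (against 5.02% of all genes). Lysozyme Lyz1 (2.47, limma adjusted p = 0.034) passed, and its near-identical relative Lyz2, from which the probes may not separate it, had the same difference. Cathepsin S (Ctss), largely a protease of antigen-presenting cells, was at 10.3, 10.1 and 10.0 against 11.0, 11.4 and 11.4, a difference of 1.13. Acp5, an acid phosphatase of macrophages and osteoclasts, differed by 1.33, and Cd68, a glycoprotein of phagocyte lysosomes related to Lamp1, by 1.90. Laptm5, a lysosomal membrane protein of blood cells, differed by 1.07. Gpnmb, which phagocytes under lysosomal stress express, differed by -0.17, at means of 5.87 and 5.70. Atp6v0d2, a proton pump subunit, differed by -0.03, at means of 4.60 and 4.57. Both genes lay near or below the median level of the probe sets, 5.7. The wild-type means of Acp5 (4.9) and Cd68 (5.1) were below that level too.

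Macrophage markers lay higher in the same islets. Of 25 markers measured, 23 lay above 0 (against 48% of all genes). Of the same markers, 18 had an unadjusted p under 0.05, all of them higher (against 5.02% of all genes). After adjustment in limma 2 of them rose. These were the pore-forming protein gene Mpeg1, by 1.57 (adjusted p = 0.0068), and the signalling adaptor gene Tyrobp, by 1.5 (adjusted p = 0.027). The 2 markers below 0 were Fcer1g (-0.03), with a wild-type mean of 8.33, and Mrc1 (-0.13). Cd14 and Msr1 differed by only 0.07 and 0.10, at wild-type means of 6.57 and 6.7. The scavenger receptor gene Cd163 stayed near the floor, at means of 3.83 and 3.97. Array means of the 25 were 6.60 to 6.72 against 7.41 to 7.53. Without Cd68, Ctss, Laptm5 and Lyz2, which are on the phagocyte list too, the range was 6.40 to 6.54 against 7.06 to 7.16. The part of macrophages in the differences of the lysosomal genes was not tested, and in whole islets more cells of a type and more RNA per cell cannot be told apart. Acinar markers, from the exocrine tissue around islets, overlapped between genotypes. Their mean over 22 genes was 10.03, 11.38 and 11.75 against 11.18, 8.84 and 10.29. Of these 22 markers, 20 lay below 0, as did 7360 of all 18193 genes. With the acinar mean as a covariate, the median difference of the lysosomal genes was 0.21. In that setting, 18 members were higher at an unadjusted p under 0.05. The islet hormone genes Ins2, Gcg, Sst and Ppy were near the top of the scale, with Sst the lowest at genotype means of 14.2 and 14.1, as the tissue label says. Beta-cell markers had a median difference of -0.17 over 11 genes, of which 8 lay below 0 and 2 above. The array means of the 11 beta-cell markers were 12.15 to 12.23 against 11.87 to 12.07, so the genotypes did not overlap in this mean. Stellate cell and fibroblast markers overlapped, with a mean of 8.9, 8.1 and 8.1 against 8.3, 8.1 and 8.1 over 8 genes.

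The genes with the pattern most like that of the proteases were found by Pearson correlation with the protease mean over the 6 arrays, among all named genes that are no members. They were Crip1 (0.997), Rgs1 (0.996), Apoe (0.994), Fcgr3 (0.988) and Timmdc1 (0.988). Apoe, a lipid carrier protein, was at 10.4, 9.9 and 9.7 against 11.2, 11.4 and 11.4. The Fc receptor gene Fcgr3, which is on the macrophage list, was at 6.7, 6.0 and 5.8 against 7.4, 7.9 and 7.9. Crip1 was at 10.7, 10.6 and 10.5 against 10.9, 11.0 and 10.9. In all of the genes found, as in the protease mean, wild-type replicate 1 was the highest and replicate 3 the lowest wild-type array. The search itself favours genes with that order, so the shared order is no separate result. With 6 arrays in separated groups and 18154 genes searched, such values describe a likeness only.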

How the data were processed

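Gene expression was measured in islets of 6 mice on 1 array each. The values deposited by the authors are log2 values rounded to 0.1. The submitters' processing notes name RMA and affy, and their versions were not stated. Control probe sets (64) stayed out. Gene names came from the platform annotation: 34945 probe sets had 1 symbol, 932 several and 9160 none here. An array has no read depth, and 3 arrays per genotype limit the precision.

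The test, two-sided and with genotype as the one term, was lmFit with eBayes from limma 3.58.1 under R 4.3.3. Its p-values were adjusted by Benjamini-Hochberg for 45037 probe sets, and the threshold was 0.05. The test was tried on simulated data, but only with changes larger than those of the members. That trial shows nothing about differences as small as theirs. The members and lists were chosen with earlier results of these data known, so no list was tested. Values per array are given for the 12 separated members with the smallest p, the 3 with the lowest differences, the brightest of each group, and a few chosen after their values were seen. Of the other lysosome lists, up to 6 genes with an unadjusted p under 0.05 are named, and M6pr, Igf2r, Tfeb, Tfe3, Mitf, Cst3, Gpnmb and Atp6v0d2 after their values were seen. No protein sequences were used here. Python 3.11.15 with matplotlib 3.10.9 drew the figures. Alternatives were quantile normalization, median centring, a filter on dim probe sets, intensity-trend and robust priors, array weights, averaged probe sets, an acinar covariate and leaving out each array.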

Additional observations from a re-analysis of the deposited data

How the results depend on the processing

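In none of the 14 alternatives did one of the 39 members pass the adjusted threshold, and the count of members higher at an unadjusted p under 0.05 stayed between 17 and 25. Over all probe sets, 13 passed, against 30 with quantile normalization, 51 with the robust prior, 26 with array weights, 3 with the acinar covariate and 1 to 4 with an array left out. The median difference of the members was 0.20 in the main setting, 0.17 with quantile normalization and 0.18 with averaged probe sets. It was 0.25 with array weights and 0.20 to 0.27 with an array left out. With quantile normalization, 19 members were higher at an unadjusted p under 0.05, against 23 in the main setting. The protease median was 0.42 with the acinar covariate, 0.28 with averaged probe sets and 0.40 to 0.60 with an array left out. The glycosidase median was 0.18 with averaged probe sets. The lipid group's median was 0.072 with quantile normalization, 0.19 with array weights, 0.083 with averaged probe sets and 0.083 to 0.20 with an array left out, and that of membrane proteins was 0.20 with array weights. Of the 37 members with a difference other than 0, 4 changed sign: Asah1 to 0.027 with the acinar covariate, Cln3 to 0.058 with array weights, to 0.033 with averaged probe sets and from -0.13 to 0.067 with an array left out, Hexa to 0.024 with array weights and from -0.083 to 0.067 with an array left out, and Tpp1 to 0.087 with array weights and from -0.13 to 0.12 with an array left out. The causes were not tested. The counts at an unadjusted p, the differences of members outside the naming rule and the list without Sgpl1, Gnpda1 and Manbal were added after seeing the data. With values rounded to 0.1, differences and gaps of a single step are at the limit of resolution. No paired analysis was possible because the genotypes share no replicate number.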
